A study of Mus musculus with 8 samples.

Results

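The subject is the difference between 2 NMuMG lines in their response to TGFβ, gene by gene: the response of the line labelled RREB1 KO minus the response of the RREB1 WT line. NMuMG is an established mouse mammary epithelial cell line. Each response is the log2 fold change of TGFβ-treated cells against cells treated with SB505124, an inhibitor of the kinase of the TGFβ type I receptor, so a positive difference means that a gene rose more, or fell less, with TGFβ in the KO-labelled line. Of 18102 genes in the deposited table, the 12498 with a mean of at least 10 normalised counts over the 8 libraries were tested, and the other 5604 were not.

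RNA was sequenced from 4 groups of 2 libraries: WT with SB505124, WT with TGFβ, KO-labelled with SB505124 and KO-labelled with TGFβ. Serum was withdrawn from all cells for 6 h. SB505124 was given at 2.5 µM for 6 h, and TGFβ at 100 pM for 1.5 h. The comparison group thus had its receptor blocked, was not left untreated, and was treated for longer. The KO columns carry the single code KO1, taken here as 1 clone, so a difference between the lines cannot be told apart from a difference between 2 cell clones. The labels do not say whether the 2 libraries of a group came from separate cultures, so the spread that the p-values are judged against may be technical.

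TGFβ binds a pair of receptor kinases that phosphorylate SMAD2 and SMAD3, which join SMAD4 and enter the nucleus. SMAD complexes bind DNA weakly by themselves, so which genes they act on depends on partner transcription factors such as AP-1 and RREB1. RREB1 is a zinc finger factor acting downstream of RAS signalling that has been described as a SMAD partner at genes of the epithelial-to-mesenchymal transition (EMT), in which epithelial cells lose junctions and gain motility. NMuMG cells are a common model of that transition, with Snai1 among its first regulators to be induced.

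The libraries held 25144204 to 32143113 reads, and the ribosomal transcript Rn45s took 0.485% to 1.06% of them, most in WT TGFβ replicate 1. In a principal component analysis the lines lay apart on component 1 (76.2% of the variance) and the treatments on component 2 (17.4%). Rreb1 itself stood at 1055 and 1033 normalised counts in WT SB505124, 1959 and 1769 in WT TGFβ, 1327 and 1343 in KO-labelled SB505124 and 2481 and 2241 in KO-labelled TGFβ. Its level was thus above WT, rather than below it, in every KO-labelled library of the same treatment. Gene counts cannot show whether those transcripts encode RREB1, and the lines are called by their labels throughout. The response of Rreb1 was alike in size in both lines, 1.78-fold and 1.77-fold, with a difference of -0.01 ± 0.12 on the log2 scale (SE, limma adjusted p = 0.976). Epithelial keratins were abundant everywhere, Krt8 at 59377 to 115829 and Krt18 at 76633 to 118093 normalised counts, while Epcam and Krt14 were at 0 in all 4 KO-labelled libraries and at 3 to 46.3 in the WT ones. Krt5, a basal keratin, was at 56.8 to 82.1 in KO-labelled and at most 3.43 in WT libraries. Vim, which encodes the mesenchymal filament protein vimentin, was abundant too. It stood at 87998 to 106500 in WT and at 35656 to 50023 in KO-labelled libraries.

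The TGFβ response differed between the lines for 352 genes, 2.82% of those tested (limma with a variance trend, Benjamini-Hochberg adjusted p under 0.05). Of these, 281 responded higher in the KO-labelled line (2.25% of genes tested) and 71 lower (0.568%), so 79.8% of the calls lay in the higher direction. Most differences were modest: 57 of the 281 and 17 of the 71 reached 2-fold, and 8 and 5 reached 4-fold. At an unadjusted p under 0.05 there were 2102 genes. The median difference over all genes tested was 0.01 on the log2 scale, with quartiles of -0.15 and 0.18. In bulk RNA, a change in the number of cells of 1 kind and a change in RNA per cell cannot be told apart.

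**Figure D1:**
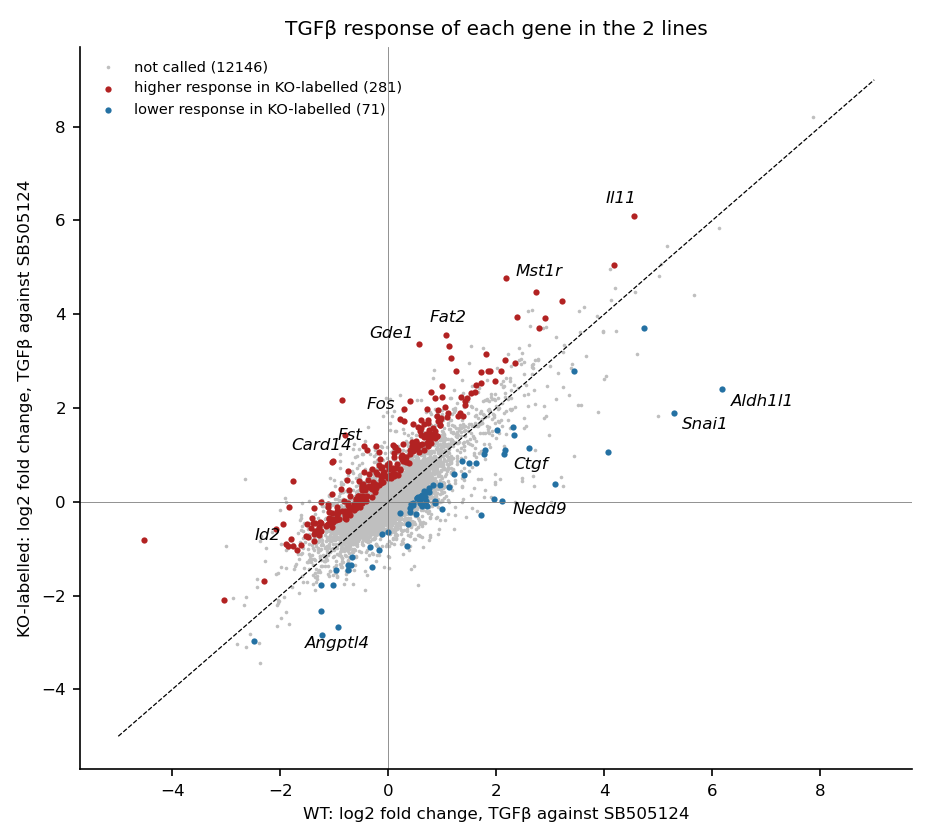
Each point is 1 of 12498 genes, placed by its log2 fold change of TGFβ against SB505124 in WT (horizontal) and in the KO-labelled line (vertical), and the dashed line marks equal responses. Red points are the 281 genes with a higher and blue points the 71 with a lower response in the KO-labelled line. Most called genes lie close to the line, and Aldh1l1, Snai1 and Nedd9 lie far below it.

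The genes with a higher response were of a mixed kind. Their median response was -0.13 in WT and 0.62 in the KO-labelled line, and their median log2 level of KO-labelled against WT was -0.17 under SB505124 and 0.52 under TGFβ. The genes with a lower response had median responses of 0.66 in WT and 0.05 in the KO-labelled line, and median log2 levels of KO-labelled against WT of 0.33 under SB505124 and -0.40 under TGFβ. These comparisons share libraries, so their values are only set side by side. TGFβ against SB505124 was called for 43.3% of genes in WT and 30.9% in the KO-labelled line. The 508 genes that rose at least 2-fold averaged over the lines had a median difference of 0.19, and the 207 that fell at least 2-fold one of 0.11.

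The calls changed with transcript length. Genes were ranked by transcript length into 5 equal bins. In the shortest bin (64 to 1754 bases) 0.524% were called higher and 0.645% lower, whereas in the longest bin (5098 to 123179 bases) 4.8% were called higher and 0.444% lower. The median response ran from 0.23 in the shortest to -0.25 in the longest bin in WT, and from 0.08 to -0.14 in the KO-labelled line. Relative to the mean of all libraries, the longest bin minus the shortest was -0.43 and -0.45 (log2) in the WT TGFβ libraries and 0.39 and 0.24 in the KO-labelled SB505124 libraries, and between -0.00 and 0.21 in the other 4. With the trend on length removed, 263 genes were called, 181 higher and 82 lower, and 68.8% of calls were higher. With length and GC content removed together, 642 were called, 392 higher and 250 lower, 61.1% higher. Quantile normalisation gave 70.3% higher of 350. The part of transcript length in the excess of higher responses was not tested further.

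**Figure D2:**
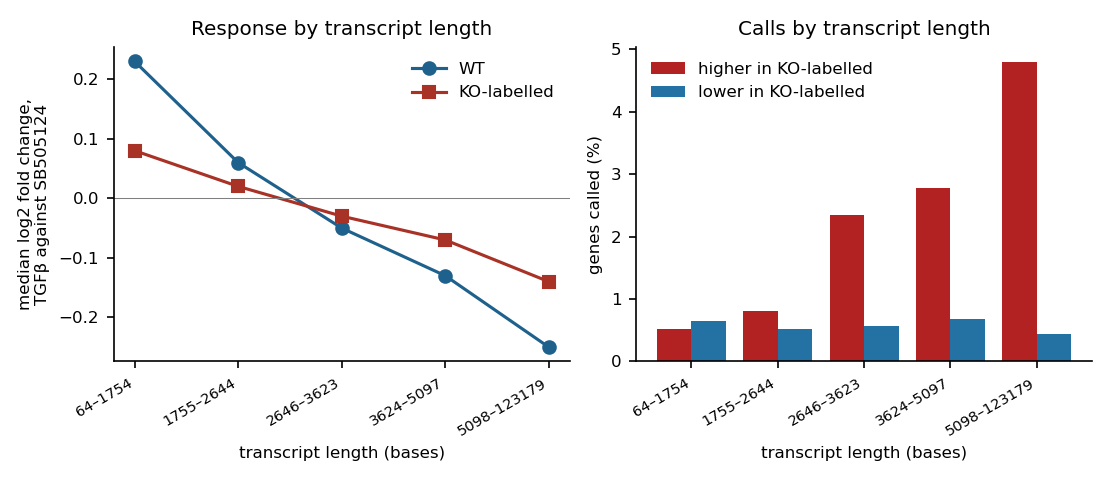
Left, the median log2 fold change of TGFβ against SB505124 in WT and KO-labelled cells for 5 bins of genes by transcript length in bases. Right, the percentage of genes in each bin called higher (red) or lower (blue) in the KO-labelled line, which rises from 0.524% to 4.8% for higher calls and stays between 0.444% and 0.685% for lower calls.

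The number of calls also rested on single libraries. Without WT TGFβ replicate 1 there were 1027, without WT SB505124 replicate 1 there were 141, without WT SB505124 replicate 2 there were 168 and without KO TGFβ replicate 1 there were 150. Without any of the other 4 libraries there were 321 to 442. Of the 141, 137 were among the 352, and of the 1027, 342 were. Of the calls of the 108 genes named by rule, leaving out these 4 libraries ended 2, 36, 31 and 33 in that order, and leaving out another ended 10 to 13. Without the variance trend in the test 47 genes were called, and this setting ended the call of 73 of the 108. Of the 103 among the 108 that were called, 28 kept the call in every alternative that gave them a value, and none turned sign on the log2 scale.

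**Figure D3:**
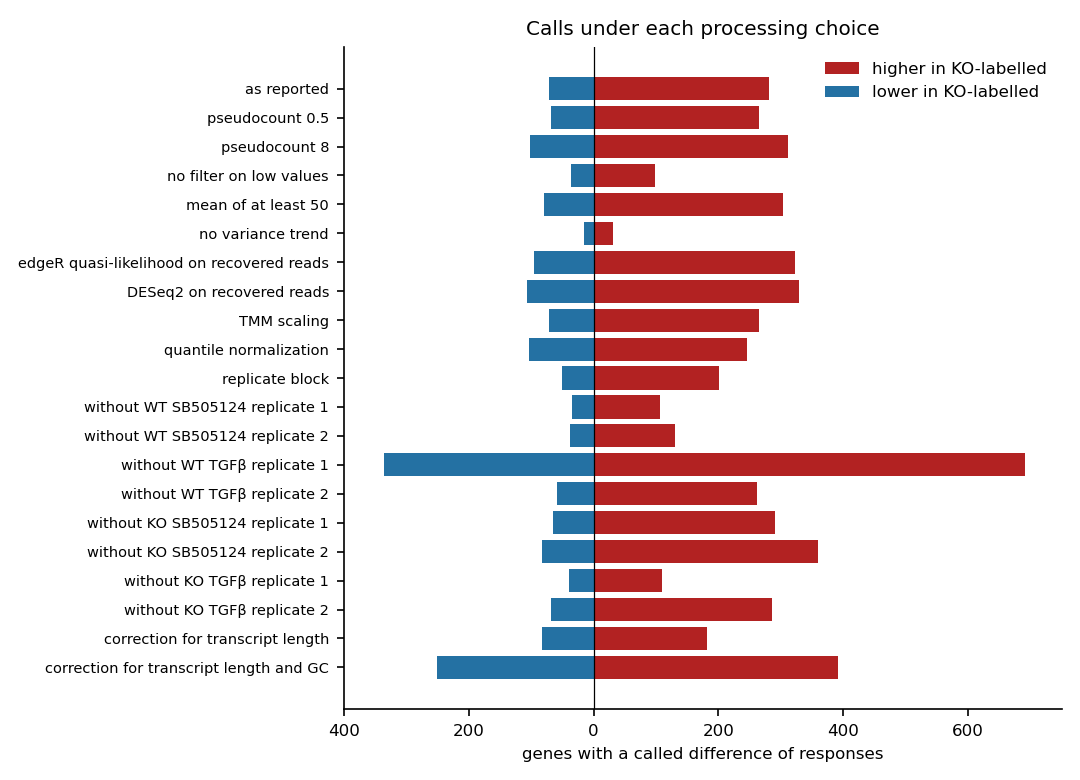
Number of genes called for a difference of responses under each processing choice, higher in the KO-labelled line to the right (red) and lower to the left (blue). The reported analysis (281 and 71) stands at the top, and the bars range from 31 and 16 without the variance trend to 691 and 336 without WT TGFβ replicate 1.

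Sequences upstream of 4 genes are shown because their responses differ: that of Snai1 and of Nedd9 was much smaller in the KO-labelled line, Il11 rose in both lines and more in the KO-labelled one, and Fos rose there and did not pass the test in WT. Each is the 250 bases before a RefSeq transcript start in GRCm38.p6, the assembly of mm10, 5′ to 3′ on the gene's strand. Capitals mark matches, on either strand, to 4 motifs: CAGAC (SMAD), TGANTCA (AP-1), TGACGTCA (cyclic AMP response element) and ACCACCC (within the C-rich element bound by RREB1).
Snai1, chr2:167537945-167538194, plus strand: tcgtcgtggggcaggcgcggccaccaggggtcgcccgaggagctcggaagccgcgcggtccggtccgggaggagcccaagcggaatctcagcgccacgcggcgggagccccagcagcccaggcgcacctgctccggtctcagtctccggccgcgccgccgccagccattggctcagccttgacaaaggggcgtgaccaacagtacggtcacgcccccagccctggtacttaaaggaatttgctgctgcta
Nedd9, chr13:41359002-41359251, minus strand: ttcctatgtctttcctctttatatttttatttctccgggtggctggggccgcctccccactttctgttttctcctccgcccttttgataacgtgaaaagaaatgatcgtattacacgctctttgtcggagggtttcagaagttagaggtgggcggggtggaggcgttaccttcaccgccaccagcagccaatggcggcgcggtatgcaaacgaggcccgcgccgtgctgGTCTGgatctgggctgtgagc
Il11, chr7:4778142-4778391, minus strand, 1 of 2 starts listed: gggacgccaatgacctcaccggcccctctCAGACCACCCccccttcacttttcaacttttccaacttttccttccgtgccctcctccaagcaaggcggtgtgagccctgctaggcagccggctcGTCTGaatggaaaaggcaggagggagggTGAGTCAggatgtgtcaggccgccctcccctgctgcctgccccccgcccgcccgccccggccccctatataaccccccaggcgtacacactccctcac
Fos, chr12:85473640-85473889, plus strand: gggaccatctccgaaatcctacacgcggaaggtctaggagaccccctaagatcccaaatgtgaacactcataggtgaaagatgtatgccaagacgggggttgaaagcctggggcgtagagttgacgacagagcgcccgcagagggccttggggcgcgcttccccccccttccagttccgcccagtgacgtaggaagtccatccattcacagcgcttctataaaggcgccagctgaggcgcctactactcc

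The Snai1 and Fos windows hold none of these letters. The Nedd9 window holds 1 CAGAC, on the opposite strand, 17 to 21 bases before the start. The Il11 window shown holds 2 CAGAC, 1 TGANTCA at 92 to 98 bases before the start, and 1 ACCACCC that overlaps a CAGAC. The window of the other Il11 start (chr7:4782858-4783107) holds 2 CAGAC and none of the other motifs. Such matches are common, and they describe the sequence without showing a bound site. Of 32851 RefSeq promoter windows of this length 42.2% held CAGAC, 6.75% TGANTCA, 1.55% TGACGTCA and 3.92% ACCACCC. The shares were 42.3%, 5.84%, 2.75% and 5.5% of 291 windows of the genes with a higher response (214 of 281 genes matched by symbol), and 48.3%, 6.9%, 1.72% and 3.45% of 58 windows of those with a lower response (42 of 71 matched).

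Snai1, on chromosome 2 (167538195 to 167542814), encodes the zinc finger repressor SNAIL, which silences Cdh1 and other epithelial genes during EMT. It stood at 24.3 and 19 normalised counts in WT SB505124 and at 935.8 and 826.3 in WT TGFβ, against 1.86 and 3.45 in KO-labelled SB505124 and 8.66 and 17.4 in KO-labelled TGFβ. Every KO-labelled library, with TGFβ or without, was below every WT library. The rise was 39.1-fold in WT and 3.74-fold in the KO-labelled line, from 6 reads to 26 in the 2 libraries together, and both rises passed the test. The difference of responses was -3.39 ± 0.47 (adjusted p = 0.00031). Over the alternatives it ran from -4.11 to -2.92, and its adjusted p reached 0.0612 without the variance trend.

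Of 13 tested EMT transcription factors, Snai1 was called lower, Hmga2 higher and the other 11 did not pass the test (15.4% called, against 2.82% of all genes). The median difference of the 13 was 0.31, against 0.01 over all genes. Hmga2 encodes an architectural chromatin protein that takes part in TGFβ-induced EMT. It rose 1.18-fold in WT and 1.95-fold in the KO-labelled line, from 9149 and 9080 normalised counts in WT SB505124 and 4290 and 3993 in KO-labelled SB505124 (difference 0.72 ± 0.11, adjusted p = 0.00079). Zeb1, another EMT repressor, had a difference of -0.07 (adjusted p = 0.818), and Foxq1 one of 0.31 (adjusted p = 0.382).

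Nedd9, on chromosome 13 (41309581 to 41487362), encodes a scaffold of focal adhesions that links integrins to SRC-family kinases. It stood at 220 and 262.3 in WT SB505124, 997.9 and 1089 in WT TGFβ, 741.8 and 582.1 in KO-labelled SB505124 and 709.5 and 613 in KO-labelled TGFβ. The WT libraries thus separated by treatment, whereas the KO-labelled ones overlapped at an intermediate level. The response was 4.33-fold in WT, and 1.0-fold with an adjusted p of 0.982 in the KO-labelled line. The difference was -2.11 ± 0.18 (adjusted p = 1.8e-06), and it was called in every alternative.

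Ctgf and Bmp2, both secreted ligands, rose by a smaller fold in the KO-labelled line. Ctgf encodes connective tissue growth factor, a matricellular protein and classical TGFβ target. It stood at 15830 and 14774 in WT SB505124, 71242 and 65439 in WT TGFβ, 17280 and 18533 in KO-labelled SB505124 and 40488 and 37060 in KO-labelled TGFβ. It began slightly higher in the KO-labelled line and rose 4.46-fold in WT against 2.16-fold there, with a difference of -1.04 ± 0.13 (adjusted p = 0.00014). Bmp2, a BMP ligand, stood at 132.8 and 152.2 in WT SB505124, 630.5 and 635.5 in WT TGFβ, 517.5 and 531.2 in KO-labelled SB505124 and 1113 and 1029 in KO-labelled TGFβ. Its KO-labelled level was higher under both treatments. The rise was 4.43-fold against 2.04-fold, a log2 difference of -1.12 ± 0.15 (adjusted p = 0.00023), yet in normalised counts the KO-labelled line gained 546.7 and WT 490.5.

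Among cytokines, Csf3 (granulocyte colony-stimulating factor) rose from 57.8 and 53.1 to 114.7 and 108.6 in WT and stood at 51.2 and 60.5 with SB505124 and 55.8 and 44.1 with TGFβ in the KO-labelled line. Its difference was -1.16 ± 0.29 (adjusted p = 0.038). Il15, a cytokine that maintains lymphocytes, differed by -1.30 ± 0.34 (adjusted p = 0.043): it fell to 0.517-fold in the KO-labelled line, and stood at 1.27-fold with an adjusted p of 0.25 in WT. Without WT SB505124 replicate 2 the adjusted p was 0.148 for Csf3 and 0.158 for Il15, and without WT SB505124 replicate 1 it was 0.111 and 0.14. Hbegf, an EGF receptor ligand, differed by -0.45 ± 0.12 (adjusted p = 0.043, and 0.208 without WT SB505124 replicate 2).

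Gpr56, an adhesion G protein-coupled receptor, stood at 421.7 and 421.6 in WT SB505124, 2874 and 2314 in WT TGFβ, 1219 and 1319 in KO-labelled SB505124 and 2886 and 2735 in KO-labelled TGFβ. The lines met at the same range under TGFβ, and the KO-labelled one started higher. It rose 6.1-fold in WT and 2.21-fold in the KO-labelled line (difference -1.46 ± 0.14, adjusted p = 5.4e-06). Ppfibp2, a liprin of cell adhesion sites, rose 3.26-fold in WT, from 73 and 57.1 to 217.9 and 208, and its KO-labelled libraries lay at 157.9 to 223.4 under both treatments. The difference was -1.98 ± 0.23 (adjusted p = 6.6e-05). Epb4.1l4b, a FERM-domain protein of the membrane skeleton, rose 4.99-fold against 2.67-fold (difference -0.90 ± 0.16, adjusted p = 0.00323).

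Elf3, an ETS factor of epithelial cells, stood at 421.7 and 478.6 in WT SB505124, 2240 and 2224 in WT TGFβ, 448.6 and 474.2 in KO-labelled SB505124 and 1409 and 1384 in KO-labelled TGFβ. The SB505124 libraries of the lines overlapped and the TGFβ libraries did not. The difference was -0.71 ± 0.13 (adjusted p = 0.00323). Denr, a factor that recycles ribosomes after termination, rose 2.64-fold in WT and 1.49-fold in the KO-labelled line (difference -0.83 ± 0.12, adjusted p = 0.00039). Apbb2, an adaptor of the amyloid precursor protein, rose 2.18-fold against 1.25-fold (-0.81 ± 0.13, adjusted p = 0.00104).

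A further set of lower responses consisted of genes that fell with TGFβ in both lines, and fell further in the KO-labelled one. Angptl4 encodes a secreted inhibitor of lipoprotein lipase. It stood at 1847 and 1740 in WT SB505124, 1000 and 890.3 in WT TGFβ, 1378 and 1607 in KO-labelled SB505124 and 254.2 and 210.2 in KO-labelled TGFβ. The KO-labelled TGFβ libraries were the lowest of the 8. The falls were to 0.527-fold and 0.156-fold, with a difference of -1.76 ± 0.15 (adjusted p = 2.3e-06). Clec2d, a C-type lectin that is a ligand of natural killer cell receptors, fell to 0.43-fold in WT and 0.14-fold in the KO-labelled line (difference -1.62 ± 0.21, adjusted p = 0.0002).

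**Figure D4:**
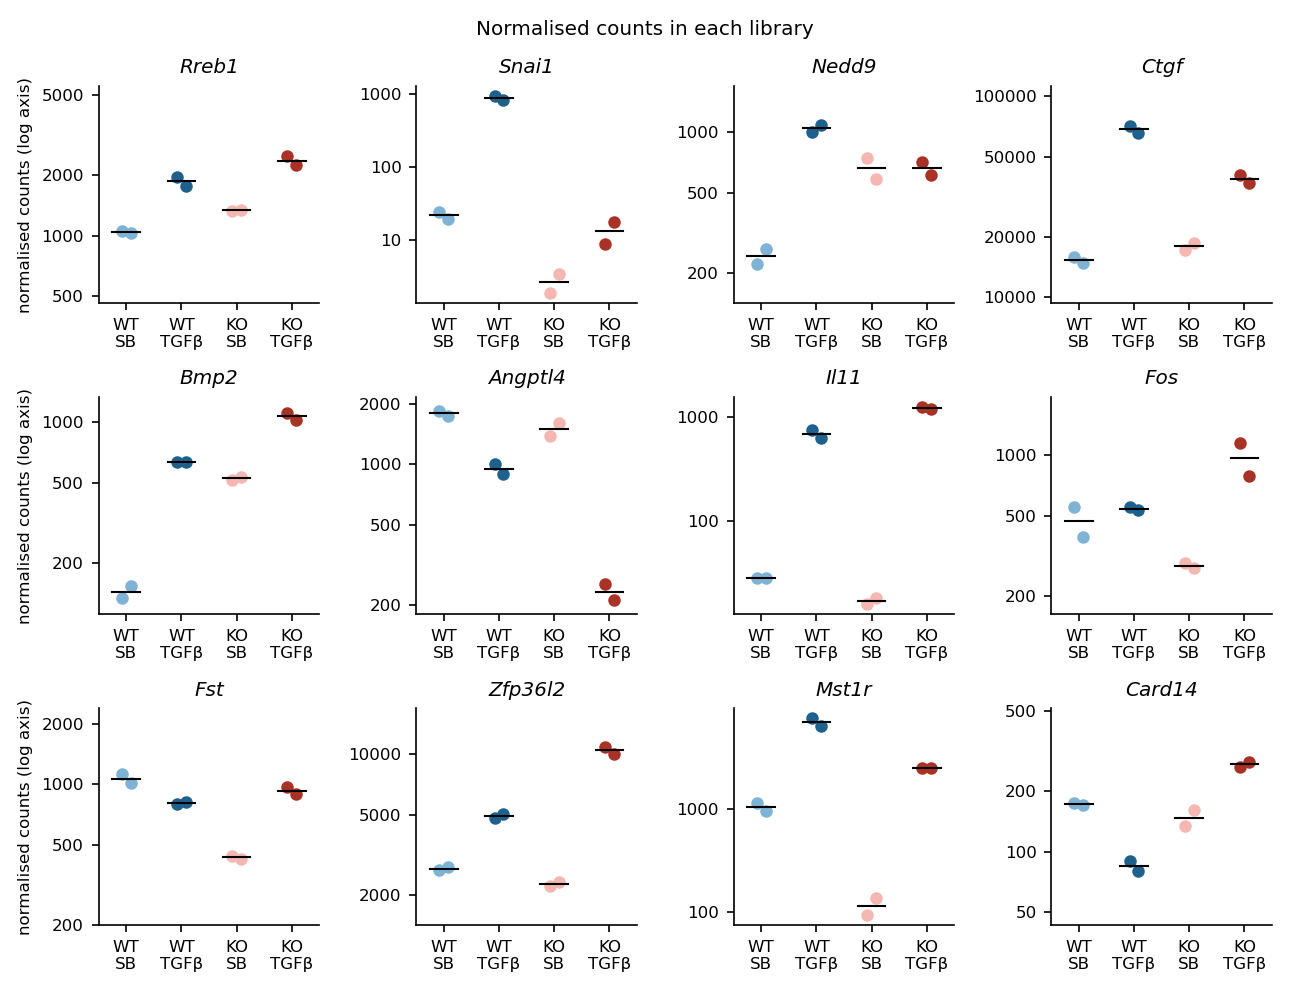
Normalised counts of 12 genes in each library on log axes, by line and treatment (SB, SB505124; KO, KO-labelled), with points for the 2 libraries of a group and a bar at their mean. Snai1 rises in both lines and by far more in WT, the Nedd9 libraries separate by treatment in WT and overlap in the KO-labelled line, and Fst and Card14 move in opposite directions in the 2 lines.

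Rnd3 stood at 1342 and 1282 in WT SB505124, 514.7 and 597.8 in WT TGFβ, 2211 and 1901 in KO-labelled SB505124 and 439 and 377.3 in KO-labelled TGFβ. The KO-labelled line started above WT and ended below it. The difference was -1.09 ± 0.15 (adjusted p = 0.00031). Flrt3, a membrane protein that binds FGF receptors, fell from 1608 and 1507 to 642.1 and 551.5 in the KO-labelled line and from 679.1 and 625.8 to 537.9 and 523.5 in WT (difference -1.09 ± 0.14, adjusted p = 0.00016). Dusp6, a phosphatase of ERK induced by ERK itself, fell in both lines, to 0.513-fold and 0.362-fold (difference -0.50 ± 0.11, adjusted p = 0.0114, and 0.0989 without WT SB505124 replicate 1). Dnajb4, an HSP40 co-chaperone, fell to 0.493-fold and 0.293-fold (difference -0.75 ± 0.13, adjusted p = 0.00235). It was the 1 called gene of 16 heat shock chaperones (6.25%, against 2.82% of all genes).

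AP-1 subunits and their partners held the highest share of calls of the 32 pathway lists. The lists were written with earlier results of these data known, so their shares describe the calls and are not an independent test. AP-1 is the dimeric factor formed by FOS and JUN proteins, and it cooperates with SMAD complexes at many TGFβ targets. Of 13 tested members, 7 had a higher response in the KO-labelled line, none a lower one and 6 did not pass the test, a share of 53.8% against 2.25% of all genes. The 7 were Fos, Fosb, Fosl2, Jun, Atf3, Mafk and Jdp2. The median difference of the 13 was 0.69, the median response was 0.22 in WT and 0.65 in the KO-labelled line, and the median transcript length was 2108 bases against 3101 over all genes. The count was 11 without WT TGFβ replicate 1, 4 with no filter on low values, between 5 and 10 in the other alternatives that kept the variance trend, and 0 without the trend.

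Fos stood at 551.4 and 391.5 in WT SB505124, 550.5 and 536 in WT TGFβ, 290.4 and 274.7 in KO-labelled SB505124 and 1153 and 792.4 in KO-labelled TGFβ. The WT groups overlapped. The KO-labelled SB505124 libraries were the lowest of the 8 and the KO-labelled TGFβ libraries the highest. The response was 3.38-fold in the KO-labelled line, and 1.17-fold with an adjusted p of 0.257 in WT (difference 1.53 ± 0.22, adjusted p = 0.00044, and 0.115 without the variance trend). Fosb fell to 0.595-fold in WT and rose 1.57-fold in the KO-labelled line (difference 1.40 ± 0.26, adjusted p = 0.00363, and 0.0618 without WT SB505124 replicate 1). Its libraries lay between 126.1 and 530.1, highest in WT SB505124.

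Jun stood at 1857 and 1843 in WT SB505124, 2631 and 2391 in WT TGFβ, 534.2 and 598.6 in KO-labelled SB505124 and 1583 and 1186 in KO-labelled TGFβ. All 4 KO-labelled libraries were below all 4 WT ones, and the rise was 2.42-fold against 1.36-fold (difference 0.84 ± 0.16, adjusted p = 0.00411). Fosl2 rose 1.54-fold in the KO-labelled line, and stood at 0.936-fold with an adjusted p of 0.342 in WT (difference 0.72 ± 0.11, adjusted p = 0.00081). Jdp2, a repressor that dimerises with JUN, rose 1.43-fold and 2.42-fold (0.75 ± 0.12, adjusted p = 0.00157). The smallest of the 7 differences were those of Atf3, 0.62, and Mafk, 0.55, and without WT SB505124 replicate 2 their adjusted p was 0.154 and 0.0842. Junb had a difference of 0.69 that did not pass (adjusted p = 0.142), from responses of 2.48 and 3.17 on the log2 scale, and Fosl1 one of 0.73 (adjusted p = 0.0683).

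**Figure D5:**
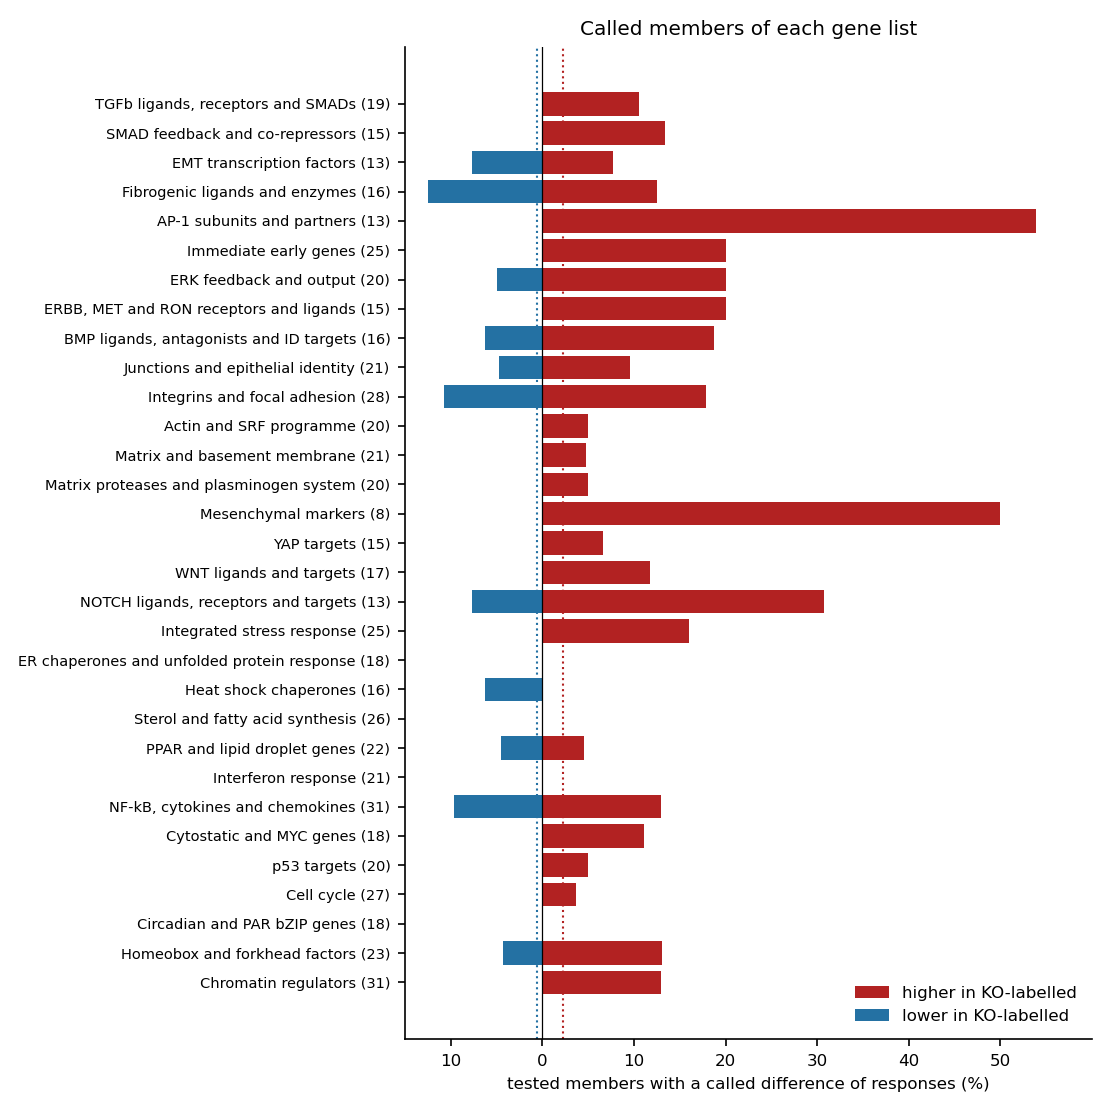
Percentage of the tested members of each gene list shown (number tested in brackets) that were called higher (red, right) or lower (blue, left) in the KO-labelled line. Dotted lines mark the shares over all genes, 2.25% higher and 0.568% lower, and the AP-1 list reaches 53.8%.

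Of 25 immediate early genes outside AP-1, 5 had a higher response (Klf4, Rhob, Klf10, Klf9 and Ier5l), none a lower one and 20 did not pass, with a median difference of 0.15. The share called was 20%, against 2.82% of all genes. Klf4, a zinc finger factor of epithelial differentiation, stood at 1632 and 1618 in WT SB505124, 1160 and 1214 in WT TGFβ, 376.9 and 462.9 in KO-labelled SB505124 and 688.3 and 619.2 in KO-labelled TGFβ. It fell in WT and rose in the KO-labelled line, where it was below WT under both treatments (difference 1.10 ± 0.15, adjusted p = 0.00021). Rhob rose from a like level, 1836 and 1838 in WT and 1743 and 1934 in the KO-labelled line, to 5667 and 5512 and to 9163 and 9528. The difference was 0.74 ± 0.11 (adjusted p = 0.00059). Klf9 rose in the KO-labelled line, 1.64-fold, and stood at 0.914-fold with an adjusted p of 0.302 in WT (0.85 ± 0.14, adjusted p = 0.00142). Egr1, the best known member of the list, had a difference of -0.93 that did not pass (adjusted p = 0.0692).

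Genes that feed back on ERK signalling were split. Of 20, Dusp5, Spred2, Dusp4 and Dusp10 had a higher and Dusp6 a lower response, and 15 did not pass (25% called, against 2.82% of all genes, median difference 0.14). Dusp5, a nuclear ERK phosphatase, stood at 1196 and 1198 in WT SB505124, 1298 and 1256 in WT TGFβ, 618.9 and 628.8 in KO-labelled SB505124 and 1492 and 1416 in KO-labelled TGFβ. The WT libraries spanned a narrow range and the KO-labelled ones lay on either side of it. It rose 2.33-fold in the KO-labelled line, and stood at 1.07-fold with an adjusted p of 0.389 in WT (difference 1.13 ± 0.12, adjusted p = 2.7e-05, called in every alternative). Spred2, an inhibitor of RAF activation, fell to 0.726-fold in WT and rose 1.29-fold in the KO-labelled line (0.83 ± 0.15, adjusted p = 0.00342). Dusp4 rose 1.2-fold and 1.88-fold (0.65 ± 0.12, adjusted p = 0.00418, and 0.0525 without WT SB505124 replicate 2).

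Of 19 ligands, receptors and SMADs of the TGFβ pathway itself, Tgfbr1 and Acvr1b had a higher response and 17 did not pass (median difference 0.23). The share called was 10.5%, against 2.82% of all genes, and the count was 5 without WT TGFβ replicate 1 and 4 with DESeq2. Tgfbr1, the type I receptor whose kinase SB505124 blocks, stood at 2224 and 2097 in WT SB505124, 4809 and 4372 in WT TGFβ, 1998 and 1843 in KO-labelled SB505124 and 6937 and 6468 in KO-labelled TGFβ. It rose 2.12-fold in WT and 3.49-fold in the KO-labelled line, with the KO-labelled TGFβ libraries the highest (difference 0.72 ± 0.12, adjusted p = 0.00126). Acvr1b, the activin type I receptor that signals through the same SMADs, fell to 0.488-fold in WT and stood at 1.12-fold with an adjusted p of 0.421 in the KO-labelled line (difference 1.19 ± 0.19, adjusted p = 0.00142). Without the variance trend neither receptor kept its call, with a limma adjusted p of 0.0901 for Tgfbr1 and 0.11 for Acvr1b. Tgfb1 itself had a difference of 0.46 that did not pass (adjusted p = 0.0878).

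Of 15 SMAD feedback genes and co-repressors, Spsb1 and Smurf1 had a higher response and 13 did not pass (13.3% called, against 2.82% of all genes, median difference 0.22). Spsb1 encodes an adaptor that marks the type II receptor for degradation. It stood at 302.1 and 297.4 in WT SB505124, 2843 and 2727 in WT TGFβ, 79.1 and 84.6 in KO-labelled SB505124 and 1564 and 1646 in KO-labelled TGFβ. It rose 9.26-fold and 19.4-fold, with lower levels in the KO-labelled line under both treatments (difference 1.07 ± 0.14, adjusted p = 0.00016). Smad7, the inhibitory SMAD, rose 6.55-fold and 8.13-fold, a difference of 0.31 ± 0.12 that did not pass (adjusted p = 0.182). Skil, a SMAD co-repressor, rose 6.39-fold and 7.63-fold (0.26 ± 0.12, adjusted p = 0.284), and Pmepa1 had a difference of -0.05 (adjusted p = 0.881). Smurf1, a ubiquitin ligase for SMADs and receptors, differed by 0.50 ± 0.11 (adjusted p = 0.013, and 0.111 without KO TGFβ replicate 1, 0.107 without WT SB505124 replicate 2 and 0.0708 without WT SB505124 replicate 1).

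Il11 and Vegfa had a higher and Ctgf and Hbegf a lower response among 16 fibrogenic ligands and enzymes, and 12 did not pass (25% called, against 2.82% of all genes). Il11, on chromosome 7 (4772373 to 4782859), encodes a cytokine of fibroblast activation. It stood at 28.4 and 28 in WT SB505124, 757.9 and 628.6 in WT TGFβ, 15.8 and 18.1 in KO-labelled SB505124 and 1259 and 1203 in KO-labelled TGFβ. The KO-labelled libraries were below WT with SB505124 and above WT with TGFβ. The rise was 23.7-fold in WT and 68.6-fold in the KO-labelled line (difference 1.54 ± 0.22, adjusted p = 0.00038, called in every alternative). Vegfa, the angiogenic growth factor, rose 1.89-fold and 3.88-fold (1.04 ± 0.13, adjusted p = 0.00014, and 0.0658 without the variance trend).

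Has2, the hyaluronan synthase that marks the matrix arm of EMT, was near silent except in WT TGFβ. It stood at 0 and 1 normalised counts in WT SB505124, 50.5 and 38.9 in WT TGFβ, 0 and 0.864 in KO-labelled SB505124 and 2.89 and 5.13 in KO-labelled TGFβ. The ratio of normalised reads was 89.2 in WT (95% counting interval 15.6 to 3.57e+03, 1 read with SB505124) and 8.87 in the KO-labelled line (1.19 to 393, 1 read). The fitted difference was -3.16 ± 0.97 and did not pass (adjusted p = 0.0903). It passed with a pseudocount of 8 and after quantile normalisation, where the difference was -2.12 and -3.85.

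BMP signalling opposes TGFβ in many epithelial cells, and ID proteins are its direct targets. Of 16 genes of this group, Fst, Id2 and Bmp8a had a higher and Bmp2 a lower response, and 12 did not pass (25% called, against 2.82% of all genes, median difference 0.23). Fst encodes follistatin, which binds and neutralises activins. It stood at 1119 and 1015 in WT SB505124, 800 and 814.9 in WT TGFβ, 439.3 and 426.7 in KO-labelled SB505124 and 964.6 and 892.9 in KO-labelled TGFβ. It fell in WT, to 0.758-fold, and rose 2.14-fold in the KO-labelled line (difference 1.50 ± 0.13, adjusted p = 2.3e-06, called in every alternative). Bmp8a, a BMP ligand, went the same ways at a low level, from 26.4 and 21 to 14.7 and 11.4 in WT and from 30.7 and 29.4 to 85.7 and 80 in the KO-labelled line (2.24 ± 0.39, adjusted p = 0.00235).

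Id2, a dominant-negative partner of helix-loop-helix factors, stood at 11951 and 12192 in WT SB505124, 3158 and 3510 in WT TGFβ, 20783 and 20533 in KO-labelled SB505124 and 10814 and 10562 in KO-labelled TGFβ. It fell in both lines, to 0.276-fold in WT and 0.517-fold in the KO-labelled line, where it was higher under both treatments. The log2 difference was 0.91 ± 0.11 (adjusted p = 0.00014, called in every alternative). In normalised counts it fell by 8737 in WT, whereas in the KO-labelled line it fell by 9970. Id1 had a difference of 0.47 and Id3 one of 0.56, and neither passed (adjusted p = 0.17 and 0.201).

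Mst1r, the receptor tyrosine kinase RON whose ligand is macrophage-stimulating protein, stood at 1144 and 967.3 in WT SB505124, 7683 and 6467 in WT TGFβ, 93.1 and 135.6 in KO-labelled SB505124 and 2506 and 2507 in KO-labelled TGFβ. All KO-labelled libraries with TGFβ were below all WT libraries with TGFβ. The rise was 22.1-fold in the KO-labelled line and 6.69-fold in WT (difference 1.72 ± 0.19, adjusted p = 3.9e-05, and 0.0686 without the variance trend), but the gain in normalised counts was 2392 against 6019. Of 15 ERBB, MET and RON receptors and their ligands, Mst1r and the EGF receptor ligands Areg and Ereg had a higher response, and 12 did not pass. The share called was 20%, against 2.82% of all genes. Areg rose 1.72-fold and 2.58-fold (0.59 ± 0.12, adjusted p = 0.00694), and the adjusted p was 0.0648, 0.0532 and 0.0595 without WT SB505124 replicate 1, WT SB505124 replicate 2 and KO TGFβ replicate 1. Ereg differed by 0.47 ± 0.12 (adjusted p = 0.0354, and 0.281 without KO TGFβ replicate 1).

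Calls among genes of NOTCH signalling, which acts between neighbouring cells, went both ways. Of 13 tested, Dll1, Lfng, Jag1 and Notch2 had a higher and Hes1 a lower response, and 8 did not pass (38.5% called, against 2.82% of all genes, median difference 0.31). No member was called with no filter on low values or without the variance trend. Jag1, a ligand, stood at 2593 and 2494 in WT SB505124, 10307 and 9659 in WT TGFβ, 3025 and 3034 in KO-labelled SB505124 and 19338 and 16745 in KO-labelled TGFβ. It began slightly higher in the KO-labelled line and rose 3.92-fold in WT and 5.94-fold there (difference 0.60 ± 0.12, adjusted p = 0.00584). Notch2, a receptor, rose 1.7-fold and 2.55-fold (0.58 ± 0.12, adjusted p = 0.00773). Lfng, a glycosyltransferase that modifies NOTCH receptors, rose 2-fold and 5.5-fold (1.46 ± 0.24, adjusted p = 0.00157).

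Hes1, a repressor switched on by active NOTCH, stood at 978.2 and 865.1 in WT SB505124, 942.1 and 902.9 in WT TGFβ, 913.9 and 953.5 in KO-labelled SB505124 and 632.5 and 570 in KO-labelled TGFβ. Only the KO-labelled TGFβ libraries stood apart, below the other 6 (difference -0.64 ± 0.14, adjusted p = 0.0113). Dll1, a ligand, rose 5.26-fold in WT, from 11.1 and 9.01 to 74.7 and 43.4, and 15.5-fold in the KO-labelled line, from 12.1 and 16.4 to 240.7 and 225.5 (difference 1.56 ± 0.40, adjusted p = 0.043). The calls of Dll1, Jag1, Notch2 and Hes1 rested on single libraries. Lfng lost its call only with no filter on low values and without the variance trend. Dll1 also lost its call with edgeR, with DESeq2 and with a mean of at least 50. Without KO TGFβ replicate 1 the adjusted p was 0.246 for Dll1, 0.0764 for Jag1 and 0.0945 for Notch2, without WT SB505124 replicate 1 it was 0.18, 0.073 and 0.0849, and without WT SB505124 replicate 2 it was 0.114 for Hes1. Without KO TGFβ replicate 2 it was 0.0558 for Hes1.

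Among 28 integrin and focal adhesion genes, Itga5, Itga6, Itga2, Itgb4 and Itga3 had a higher and Nedd9, Fermt1 and Itgb3 a lower response, and 20 did not pass (28.6% called, against 2.82% of all genes, median difference 0.22). Itga6, which pairs with Itgb4 in the laminin receptor of hemidesmosomes, stood at 9843 and 9282 in WT SB505124, 8661 and 8046 in WT TGFβ, 5123 and 4951 in KO-labelled SB505124 and 8255 and 6975 in KO-labelled TGFβ. The KO-labelled SB505124 libraries were the lowest. It rose 1.51-fold in the KO-labelled line, and stood at 0.873-fold with an adjusted p of 0.0771 in WT (difference 0.79 ± 0.12, adjusted p = 0.00094). Itga2, of the collagen receptor, fell to 0.773-fold in WT and rose 1.38-fold in the KO-labelled line (0.84 ± 0.15, adjusted p = 0.00245). Itga5, of the fibronectin receptor, rose 2.53-fold and 4.72-fold (0.90 ± 0.13, adjusted p = 0.00038) from a far lower level in the KO-labelled line, 365.8 and 375.7 against 2214 and 1982 with SB505124. The differences were 0.77 for Itgb4, 0.57 for Itga3 and -0.48 for Fermt1, and without WT SB505124 replicate 1 their adjusted p was 0.0949, 0.218 and 0.173. That of Itgb3 was -0.59, with an adjusted p of 0.184 without WT SB505124 replicate 2.

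Itga5 is also among 8 tested mesenchymal markers, of which it, Nt5e, Mmp14 and Cdh2 had a higher response, none a lower one and 4 did not pass. The share called was 50%, against 2.82% of all genes. The median difference of the 8 was 0.33. Cdh2, N-cadherin, stood at 7235 and 7190 in WT SB505124, 4171 and 4203 in WT TGFβ, 12078 and 11335 in KO-labelled SB505124 and 10377 and 8774 in KO-labelled TGFβ. It was lower with TGFβ than with SB505124 in both lines, at 0.581-fold in WT and 0.816-fold in the KO-labelled line (difference 0.49 ± 0.12, adjusted p = 0.0316). The list's count was 1 without WT SB505124 replicate 1, without WT SB505124 replicate 2 and without KO TGFβ replicate 1. Of 21 junction and epithelial identity genes, Jup and Esrp2 had a higher and Elf3 a lower response (14.3% called, against 2.82% of all genes). Esrp2 lost its call in 12 of 20 alternatives and Jup in 4 of 20. No member was called higher with no filter on low values or without the variance trend. Cdh1, E-cadherin, had a difference of 0.40 ± 0.13 that did not pass (adjusted p = 0.0961), from a fall to 0.828-fold in WT and 1.1-fold with an adjusted p of 0.286 in the KO-labelled line, and it passed without WT TGFβ replicate 1 (adjusted p = 0.0194), with DESeq2 and after quantile normalisation.

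Among the named genes, several of the largest higher responses by fold were those of genes that were low in the KO-labelled line. Fat2, a giant protocadherin of migrating epithelia, stood at 581.8 and 562.7 in WT SB505124, 1214 and 1196 in WT TGFβ, 41.9 and 32.8 in KO-labelled SB505124 and 495.8 and 406 in KO-labelled TGFβ. Even with TGFβ the KO-labelled libraries stayed below every WT library. It rose 2.1-fold in WT and 11.8-fold in the KO-labelled line (difference 2.49 ± 0.19, adjusted p = 9e-07, called in every alternative), with gains of 632.3 and 413.5 normalised counts. Gde1, a glycerophosphodiesterase, had 0 reads in both KO-labelled SB505124 libraries and 7.7 and 11.3 normalised counts with TGFβ, against 849.4 and 801 and then 1259 and 1199 in WT. Taking 3 reads over the group as the floor, it was at least 7.02-fold higher with TGFβ in the KO-labelled line. Its fitted difference, 2.80 ± 0.31 (adjusted p = 4.7e-05), ran from 0.55 to 5.67 over the alternatives and did not pass with a pseudocount of 8 (adjusted p = 0.194).

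Paqr9, a progestin and adipoQ receptor family member, and Dlx3, a homeobox factor of epithelia, were also close to 0 in KO-labelled SB505124. Paqr9 had 1 read there and 73 with TGFβ, a ratio of 80.9 (95% counting interval 14.1 to 3.24e+03), and Dlx3 had 2 and 30, a ratio of 16.6 (4.22 to 144). Their WT libraries rose 4.54-fold and 2.24-fold. Aldh1l1, a folate enzyme, was the reverse: it had 0 reads in both WT SB505124 libraries and 69.5 and 74.3 normalised counts in WT TGFβ, at least 47.5-fold higher on the floor of 3 reads over the group. In the KO-labelled line it went from 5.58 and 3.45 to 29.8 and 25.6. The fitted difference of Aldh1l1, -3.78 ± 0.63 (adjusted p = 0.0016), ran from -6.59 to -1.8 over the 18 alternatives that gave it a value, and with 0 reads in WT SB505124 its size depends on the pseudocount.

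Whether a response counts as larger depended on the scale for these genes. On the scale of normalised counts, 38 of the 281 genes with a higher log2 response gained less, or fell by more, in the KO-labelled line than in WT, and 8 of the 71 with a lower log2 response the reverse. Mst1r, Fat2, Itga5, Spsb1, Vegfa and Id2 are among the first kind, and Bmp2 among the second. Fst, Fos, Il11, Dusp5 and Zfp36l2 kept their direction on both scales.

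Zfp36l2, on chromosome 17, encodes an RNA-binding protein that speeds the decay of AU-rich mRNAs. It stood at 2644 and 2741 in WT SB505124, 4826 and 5032 in WT TGFβ, 2214 and 2312 in KO-labelled SB505124 and 10837 and 10060 in KO-labelled TGFβ. The KO-labelled line began slightly below WT and ended far above it, with gains of 2237 and 8185 normalised counts. The difference was 1.33 ± 0.11 (adjusted p = 1.5e-06, called in every alternative). Pfkfb3, an activator of glycolysis, followed a like course, 1.51-fold against 3.33-fold (1.14 ± 0.12, adjusted p = 2.9e-05). Tmcc3, a membrane protein of the endoplasmic reticulum, rose 3.6-fold and 6.86-fold and ended at 2897 and 2850 in WT and 2733 and 2688 in the KO-labelled line (0.93 ± 0.12, adjusted p = 0.00015).

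Some genes fell with TGFβ in WT and rose or did not pass in the KO-labelled line. Card14, a scaffold that activates NF-kB in epithelial cells, stood at 174.3 and 170.2 in WT SB505124, 89.5 and 80 in WT TGFβ, 134 and 160.7 in KO-labelled SB505124 and 264.7 and 278.8 in KO-labelled TGFβ. The TGFβ libraries lay on opposite sides of the SB505124 ones in the 2 lines (difference 1.90 ± 0.21, adjusted p = 4.3e-05, called in every alternative). Trpm1, a cation channel, showed the same shape at 20.6 to 66.6 normalised counts (1.90 ± 0.36, adjusted p = 0.00503). Tnrc18, a large nuclear protein, fell from 9660 and 9263 to 4417 and 3569 in WT, and stood at 2961 to 3602 in the 4 KO-labelled libraries (1.25 ± 0.15, adjusted p = 0.00014, and 0.0857 without the variance trend).

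Gcnt4, a glycosyltransferase that branches O-glycans, fell from 64.9 and 57.1 to 15.8 and 17.1 in WT and stood at 174.3 to 203.8 in the KO-labelled line (difference 1.71 ± 0.26, adjusted p = 0.00079). Dlc1 fell to 0.237-fold in WT and 0.672-fold in the KO-labelled line (1.51 ± 0.26, adjusted p = 0.00213). Nrp2, a co-receptor for semaphorins and VEGF, rose 1.88-fold in the KO-labelled line and stood at 0.901-fold with an adjusted p of 0.216 in WT. Its KO-labelled libraries, 584.7 to 1232, stayed below the WT ones, 2584 to 3095 (1.06 ± 0.13, adjusted p = 0.00016).

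Cytokines and NF-kB genes went both ways, with 4 of 31 higher (Card14, Il34, Ccl20 and Csf1), 3 lower (Cxcl5, Csf3 and Il15) and 24 not passing. The share called was 22.6%, against 2.82% of all genes. The median difference of the list was 0.05. Il34, a ligand of the CSF1 receptor, stood at 196.6 and 213.3 in WT SB505124, 545.2 and 436.6 in WT TGFβ, 48.4 and 52.7 in KO-labelled SB505124 and 362.9 and 349.6 in KO-labelled TGFβ. It rose 2.38-fold in WT and 6.94-fold in the KO-labelled line, from a lower start (difference 1.55 ± 0.20, adjusted p = 0.00016, called in every alternative). Ccl20, a chemokine, fell to 0.202-fold and 0.312-fold (0.63 ± 0.11, adjusted p = 0.00205), while the neutrophil chemokine Cxcl5 fell to 0.18-fold and 0.128-fold (-0.49 ± 0.10, adjusted p = 0.0121, and 0.103 without KO TGFβ replicate 1).

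Of 25 integrated stress response genes, driven by the factor ATF4, Trib3, Vldlr, Chac1 and Stc2 had a higher response, none a lower one and 21 did not pass (16% called, against 2.82% of all genes, median difference 0.22). Trib3, a pseudokinase, rose 1.63-fold and 3.97-fold (1.28 ± 0.15, adjusted p = 6.9e-05) and was low in the KO-labelled line, at 141.5 and 152.9 against 787.6 and 782 with SB505124. Chac1, which degrades glutathione, fell from 807.9 and 869.1 to 483.1 and 428.6 in WT and stood at 173.1 to 232 in the KO-labelled line (1.16 ± 0.17, adjusted p = 0.00039). Stc2, a secreted glycoprotein, lost its call in 5 of 8 leave-outs, as without WT SB505124 replicate 1 (adjusted p = 0.254).

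The counts in the remaining lists stand against 2.82% of all genes called. Of 31 chromatin regulators Setd1b, Dnmt3a, Crebbp and Ep300 had a higher response (12.9%), and the median transcript length of the list was 5180 bases against 3101 over all genes. Setd1b, a histone methyltransferase, fell to 0.47-fold in WT and stood at 0.857-fold with an adjusted p of 0.141 in the KO-labelled line (0.87 ± 0.16, adjusted p = 0.00329). Ep300 and Crebbp, the histone acetyltransferases that SMAD complexes recruit, differed by 0.45 (adjusted p = 0.0456) and 0.59 (adjusted p = 0.0309), and 1 of the 31 was called with the trend on transcript length removed, 1 without KO TGFβ replicate 1 and 0 without WT SB505124 replicate 1. Of 23 homeobox and forkhead factors, Foxk1, Onecut3 and Dlx3 had a higher and Foxo1 a lower response (17.4%). Gadd45g and Gadd45b were called higher of 18 cytostatic and MYC genes (11.1%), Wnt7a and Fzd1 of 17 WNT genes (11.8%), Acsl3 higher and Angptl4 lower of 22 PPAR and lipid droplet genes (9.09%). A single higher call was made in each of 20 actin and SRF genes (Actn1), 21 matrix genes (Col12a1), 20 matrix proteases (Mmp14), 15 YAP targets (Crim1), 20 p53 targets (Plk2) and 27 cell cycle genes (Plk1), shares of 3.7% to 6.67%. The median transcript length of the 21 matrix genes was 6450 bases. With the trend on length removed their median difference was 0.25, with 0 calls. With length and GC content removed it was 0.13, with 1 higher and 2 lower calls. The matrix genes had a median difference of 0.38, and their count was 9 without WT TGFβ replicate 1 and 0 without WT SB505124 replicate 1, without WT SB505124 replicate 2 and without KO TGFβ replicate 1. Leaving out single libraries moved the other counts of 1 or 2 as well, between 0 and 4.

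No gene was called by limma among 18 endoplasmic reticulum chaperones, 26 sterol and fatty acid synthesis genes, 21 interferon response genes and 18 circadian genes, where the median differences were 0.11, 0.09, 0.05 and 0.06. At an unadjusted p under 0.05 there were 2, 6, 1 and 2, and edgeR and DESeq2 called 0 as well. Without WT TGFβ replicate 1 there was 1 call among the chaperones, 5 among the sterol genes and 1 among the circadian genes. None of the tested markers of luminal (7), basal (3), fibroblast (2), leukocyte (4), endothelial (1) or adipocyte (1) cells was called by limma, edgeR or DESeq2, and at an unadjusted p under 0.05 there were 2 basal and 1 adipocyte genes. The summed leukocyte markers lay at 507.7 to 713.4 normalised counts over all libraries, and Ptprc, which defines leukocytes, at 1.05 to 11.6. The summed fibroblast markers were 130.8 to 131.2 in WT SB505124, 169.2 to 173.7 in WT TGFβ, 35.4 to 46.6 in KO-labelled SB505124 and 141.5 to 193.8 in KO-labelled TGFβ, with Pdgfrb at 0 to 2.05. Pdgfra, another marker of the fibroblast list, stood at 38.5 and 34 in WT SB505124, 110.5 and 123.4 in WT TGFβ, 34.4 and 44 in KO-labelled SB505124 and 140.6 and 133.3 in KO-labelled TGFβ. Whether any such cells were present, and their part in the differences, was not tested.

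The called genes nearest the threshold were Kif13b and Lpcat1 (adjusted p = 0.0493, differences 0.82 and 0.54) and Otud4 (0.0486, 0.44). The nearest outside were Wdr6, Tcof1 and Hook1 (each 0.0502, differences 0.40, 0.43 and 0.63).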

How the data were processed

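Per the labels, total RNA of 8 NMuMG samples was made into libraries with a TruSeq RNA kit. The tools named for build mm10 are HTSeq 0.6.1p1, FastQC 0.11.5 and DESeq2 3.4, per the submitters' processing notes, which give no roles, and the aligner is not given in the sources used here. The authors deposited 1 table of normalised counts per gene, a signal equal to read counts divided by a size factor per library (0.875 to 1.16). All values came back as whole reads, within 0.01 reads, when multiplied by these factors. The table gives no gene lengths. In it 26 symbols had turned into dates, and 4 rows shared a name with another, and none of these is named.

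Values were taken to log2(value + 1), and fold changes are on that scale, which understates changes of low genes. Genes with a mean of at least 10 were tested in limma 3.58.1 (R 4.3.3), as 4 group means with a variance trend (4 residual and 14.3 prior degrees of freedom), two-sided, adjusted over 12498 genes. Counting intervals and floors cover counting error only. Alternatives used edgeR 4.0.16 and DESeq2 1.42.0 on the recovered reads, other filters, pseudocounts and scalings, a block by replicate number, each library left out, and, added after seeing the data, corrections for transcript length and GC content and the scale of normalised counts. Transcript lengths and gene positions are from GENCODE M21 (99.2% of tested genes matched) and promoters from RefSeq.

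The contrast, the gene lists and the rule for named genes were chosen with earlier results of these data known. The rule named 10 genes whatever their values, in each direction the 15 called genes with the largest difference and the 15 with the smallest p that had a group mean of at least 50, non-overlapping responses and no predicted-gene symbol, and up to 4 called genes of each of 32 pathway lists. Jun, Atf3, Mafk, Dusp10, Itga3, Itgb3, Itgb4, Fermt1 and Cxcl5, and the list members named from a count or as not passing, fall outside it and were chosen after their values were seen. The procedure was tested on simulated counts. A few results on the list members are not reported here.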

Additional observations from a re-analysis of the deposited data

Results flagged for a closer look

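The same contrast, TGFβ against SB505124, gave different responses in the 2 lines for 352 genes, and for each the difference itself was tested by limma. These are the log2 differences of responses, KO-labelled minus WT, of the named genes chosen by size or p and of those named whatever their values that were called. Over all 281 genes called higher the largest difference was 3.71, in a gene that the rule for naming left out. Among the genes given here, differences were largest in the higher direction for Gde1 (2.80), Paqr9 (2.59), Fat2 (2.49), Bmp8a (2.24), Onecut3 (2.20), Dlx3 (1.90), Card14 (1.90), Trpm1 (1.90), Fam65c (1.74) and Mst1r (1.72). They were next in size for Gcnt4 (1.71), Ier5l (1.70), Socs1 (1.63), Bend7 (1.56), Dll1 (1.56), Il11 (1.54), Fos (1.53), Fst (1.50), Zfp36l2 (1.33) and Trib3 (1.28). Smaller values were found for Tnrc18 (1.25), Pfkfb3 (1.14), Dusp5 (1.13), Nrp2 (1.06), Vegfa (1.04), Tmcc3 (0.93), Bcar3 (0.93) and Id2 (0.91). In the lower direction the differences were largest for Aldh1l1 (-3.78), Snai1 (-3.39), Nedd9 (-2.11), Ppfibp2 (-1.98), Cpn1 (-1.88), Angptl4 (-1.76), Clec2d (-1.62), Gpr56 (-1.46) and Il15 (-1.30). The remaining lower values were those of Csf3 (-1.16), Bmp2 (-1.12), Rnd3 (-1.09), Flrt3 (-1.09), Ctgf (-1.04), Epb4.1l4b (-0.90), St5 (-0.84), Denr (-0.83), Apbb2 (-0.81) and Fgf1 (-0.78). These calls were not equally firm. Of the alternatives that gave it a value, Dll1 lost the call in 15 of 20, edgeR and DESeq2 among them. Socs1 lost it in 13 of 19, Fam65c in 12 of 18, and Il15 and Csf3 in 10 of 19 each. Onecut3 lost it in 3 of 18 and Trpm1 in 2 of 18. With no filter on low values, Paqr9, Onecut3, Dlx3, Trpm1, Fam65c, Ier5l, Socs1 and Dll1 lost the call, as did Cpn1, Il15 and Csf3 in the lower direction. Over the alternatives that gave a value, the difference ran from 0.55 to 3.73 for Paqr9 and from 0.25 to 2.89 for Dlx3.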

How the results depend on the processing

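The 352 calls (281 higher, 71 lower) became 134 (98 and 36) with no filter on low values, 47 (31 and 16) without the variance trend, and 642 (392 and 250) with transcript length and GC content removed. Length alone gave 181 higher, and DESeq2 gave 107 lower. Leaving out 1 library, where the lone library left in its group is assumed to vary like the others, gave 141 to 1027 calls, 106 to 691 of them higher and 35 to 336 lower. The other alternatives kept the count within 1.5 times: 333 and 413 with pseudocounts of 0.5 and 8, 382 with a mean of at least 50, 418 with edgeR and 436 with DESeq2 on the recovered reads, 337 with TMM and 350 with quantile scaling. The cause of these changes was not tested. With the replicate number as a replicate block 252 genes were called (201 and 51), and 14 of the 108 genes named by rule lost the call. Deviations of same-numbered libraries correlated at 0.355 between the 2 WT groups and 0.201 between the 2 KO-labelled groups, and between -0.413 and 0.0545 over the 4 pairs across the lines. The labels tie no number to a shared source, and the numbers were not taken to pair the samples. On the scale of normalised counts, KO-labelled minus WT, the direction turned for Mst1r (-3627), Gde1 (-394.2), Paqr9 (-32.7), Fat2 (-218.8), Dlx3 (-113.2), Trib3 (-58.4), Id2 (-1232), Vegfa (-396), Spsb1 (-961.8), Klf10 (-765.9), Areg (-15), Itga5 (-1828), Wnt7a (-1445) and Ccl20 (-3722), and for Bmp2 (56.3) and Rnd1 (102.9) among lower ones. A larger fold from a lower level can be a smaller gain or loss in counts, and a smaller fold from a higher level a larger one. Depth limits genes near 0 reads in a group (Gde1, Paqr9, Dlx3, Has2 and Aldh1l1), whose fitted differences move with the pseudocount.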

Other observations

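Gene families picked by symbol after their values were seen moved in small steps. Of 79 tested cytosolic ribosomal protein genes, whose products build the ribosome, 5 had a difference above 0 and the median was -0.26. Of the 79, 2 were called (Rpl35a and Rpl38, both lower). That is 2.53%, against 2.82% of all genes called and 0.568% called lower. The median response of the 79 was 0.40 in WT and 0.13 in the KO-labelled line. Of 77 mitochondrial ribosomal protein genes 9 had a difference above 0, with a median of -0.16. Respiratory chain subunits (72) had a median of -0.23 and 6 lower calls (8.33%, against 0.568% of all genes), Cox6c, Ndufs6, Cox7a2, Uqcrh, Atp5k and Cox7a2l. The median transcript lengths of these 3 families were 937, 1316 and 870 bases, against 3101 over all genes, and the part of length in their differences was not tested.

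Semaphorins, plexins and neuropilins, guidance ligands and receptors, had a median difference of 0.37 over 26 tested genes, with 4 higher calls (Nrp2, Sema4f, Plxna2 and Sema4b, 15.4% against 2.25% of all genes), and a median transcript length of 5710 bases. Of 28 kinesins, motors that move along microtubules, Kif5c, Kif20a and Kif13b were called higher (10.7%, against 2.25% of all genes). Their list had a median difference of 0.23 and a median length of 5434 bases. Solute carriers had 7 higher calls among 217 (3.23%, against 2.25% of all genes). The 303 zinc finger genes with Zfp symbols had 2 higher and 1 lower call (0.99%, against 2.82% of all genes). Their median difference was -0.06.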
